A study of Mus musculus with 6 samples.

Results

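Glutamate receptor subunits and the scaffold proteins that anchor them beneath the synapse were followed through nuclei of the mouse spinal cord. The members were taken by gene symbol from a list of 35, and 34 of these are rows of the count table, which holds 19954 genes. Grm6 was not analysed here. The set comprises the AMPA receptor genes Gria1 to Gria4, the kainate receptor genes Grik1 to Grik5 with their auxiliary subunits Neto1 and Neto2, and the delta receptor gene Grid1. It also holds 7 NMDA receptor genes, 6 metabotropic receptor genes found in the table, and the scaffold genes of the Dlg, Homer and Shank families.

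Glutamate is the main excitatory transmitter of the spinal cord. AMPA and kainate receptors are ion channels built of several subunits that carry fast currents, and NMDA receptors are slower channels that admit calcium and need GluN1, the product of Grin1, together with a GluN2 or GluN3 subunit. Metabotropic receptors signal through G proteins. The Dlg proteins (including PSD-95, the product of Dlg4), Homer and Shank proteins tie the receptors to one another and to the cytoskeleton.

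Nuclei came from wild-type C57BL/6 mice paralysed in both legs by a severe thoracic contusion. All spent 30 min on a treadmill, 3 samples with epidural electrical stimulation (TESS) and 3 without it (CON, whose condition label reads paralyzed). Agonists of 5-HT1a and D1 receptors were present during TESS, and whether CON mice received them is not clear from the sources. The age of the mice is not stated in any source used here. The tissue is taken here as lumbar cord, as its source label says, although the extraction text speaks of a thoracic site. Whether the samples of a group are different animals is not stated, and p-values therefore measure only the spread between these 6 samples, which may be technical.

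The table held 18514 nuclei, of which the authors assigned 6035 to neurons in 38 subtypes. CON samples held 3416 to 3780 nuclei and 3365530 to 4037976 UMIs (unique molecular identifiers, 1 per captured molecule), and TESS samples 2192 to 2839 nuclei and 1582104 to 2891177 UMIs. CON 1, CON 2 and TESS 1 carry batch number 3, and each other sample is the lone one of its batch. A total of 205 cell barcodes occurred in more than 1 library. The 10 neuron markers summed to 11851 to 13892 CPM (counts scaled to a total of 1000000) in neurons and to 690 to 3257 CPM in the other classes, and the markers of each other class were highest in the class so named. The endothelial class also held 2080 to 3162 CPM of pericyte and fibroblast markers and 139 to 7974 CPM of blood and immune markers, the latter highest in TESS 1 and TESS 3.

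The first question was which cells carry these transcripts. A level is given as CPM of all UMIs of a class in a sample, and it is compared between classes for the same gene only. Because the authors formed the classes from the same nuclei, class differences were described without a test. A gene was counted as different where it lay on the same side in all 6 samples and the mean levels differed at least 2-fold. Most members were highest in neurons or in oligodendrocyte precursors (OPC), the dividing cells from which myelinating oligodendrocytes derive. Of the members with at least 60 UMIs in the pair of classes, 27 of 32 were lower in oligodendrocytes than in neurons (24.4% of all genes), 27 of 32 in microglia (21.0%), 25 of 31 in endothelial cells (23.7%) and 22 of 33 in astrocytes (20.3%), but 12 of 31 in OPC (14.3%). Between 1 and 3 members were higher in each other class than in neurons. These were Grm3, Dlg1 and Homer3 in oligodendrocytes (3 members, 15.6% of all genes), Grin2c in astrocytes (11.6%), Homer3 in microglia (17.2%), Grik4 in OPC (7.68%) and Shank3 in endothelial cells (11.8%).

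Neuron markers were also found in the other classes. In oligodendrocytes the markers stood at 5.33% (Rbfox1) to 175% (Tubb3) of their neuron level, with a median of 31.4%. The 26 members with at least 50 CPM in neurons had a median of 11.8% there. In OPC the members' median was 58.8% and the markers' 45.05%. The part of RNA from other nuclei in these levels was not tested.

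**Figure D1:**
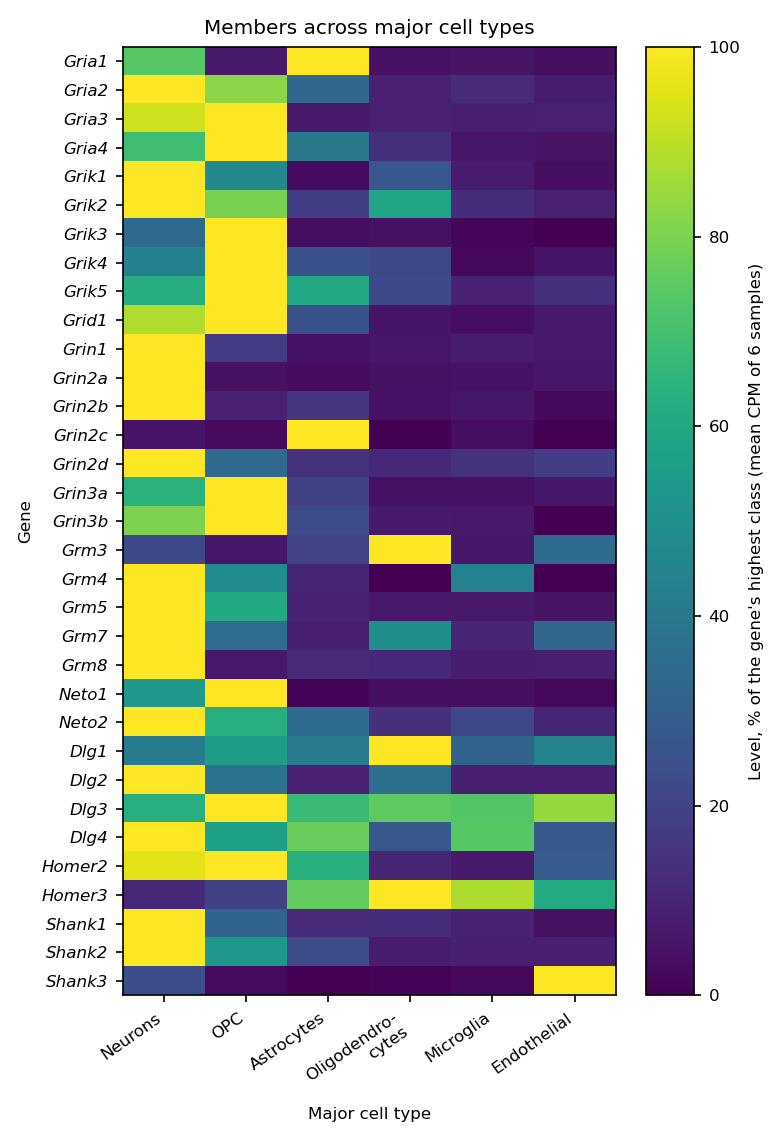
Mean level of each member (rows) in the 6 major cell types (columns) as a percentage of the level in that gene's highest class, from mean CPM over 6 samples. Neurons and OPC hold most of the highest values, while Grm3, Dlg1 and Homer3 peak in oligodendrocytes, Gria1 and Grin2c in astrocytes and Shank3 in the endothelial class.

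Among AMPA subunit genes, astrocytes exceeded neurons for Gria1 (GluA1) and OPC exceeded neurons for Gria4 (GluA4). Gria1 lay between 537 and 672 CPM in astrocytes (median 624) and between 423 and 504 CPM in neurons (median 459). The 6 astrocyte values lay above all 6 neuron values, although the mean was only 1.35 times as high. Gria4 ranged from 2066 to 2471 CPM in OPC (median 2217) and from 1347 to 1719 CPM in neurons (median 1588), again without overlap. Gria1, by contrast, averaged 43.8 CPM in OPC. Gria2, which encodes GluA2, the subunit that makes AMPA channels nearly impermeable to calcium, averaged 1619 CPM in excitatory and 1010 CPM in inhibitory neurons. It was higher in excitatory neurons in 6 of 6 samples, while Gria1, Gria3 and Gria4 were each higher in inhibitory neurons in 6 of 6, all by less than 2-fold.

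The mixture of AMPA subunits differed between neuron subtypes. The highest and lowest subtypes named here and below are those among the 24 with at least 10 nuclei in every sample, unless pooled nuclei are stated. In these 24 subtypes, Gria2 was highest in the excitatory subtype Nts, at 3196 to 5452 CPM (median 3979), and lowest in the inhibitory subtype Pnoc, at 587 to 1076 CPM (median 828). The other subunit genes were scarce in Nts. Gria2 made up 91.6% of the 834 AMPA subunit UMIs of Nts nuclei (exact 95% binomial interval 89.5% to 93.4%, 78.0% to 96.2% in single samples), against 34.5% in all neurons. These intervals, and the Poisson intervals below, cover counting error only. Shares are compared here for the same gene between subtypes, since UMIs of different genes are not on a scale of length.

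Gria3 (GluA3) was nearly missing from some subtypes. It gave 1 UMI among 91 Bnc2 nuclei and 3 UMIs among 161 Nts nuclei, both at or below the floor of 3 counts. Its highest level of the 24 subtypes was in Rorb-I, at 663 to 1089 CPM (median 855), with V2a/Etl4 next at 669 to 936 CPM and overlapping it. Motor neurons (MN, 69 nuclei and as few as 5 in a sample) held 955 CPM when pooled (Poisson 95% interval 841 to 1082 CPM). Gria3 and Gria4 made up 23.8% and 56.4% of AMPA subunit UMIs in motor neurons, and Gria2 16.4% (14.3% to 18.8%).

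Gria4 was highest in the inhibitory subtype Lxh1/Nxph1, at 2523 to 3727 CPM (median 2888). These values did not overlap those of V2a/Etl4, the next highest at 1766 to 2323 CPM. Gria1 was highest in Rorb (1236 to 2368 CPM, median 1388) and lowest in V2a/Etl4 (93.6 to 160 CPM, median 131). In the inhibitory subtype Spp1, with 72 nuclei, Gria1 made up 0.547% of AMPA subunit UMIs (0.178% to 1.27%).

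**Figure D2:**
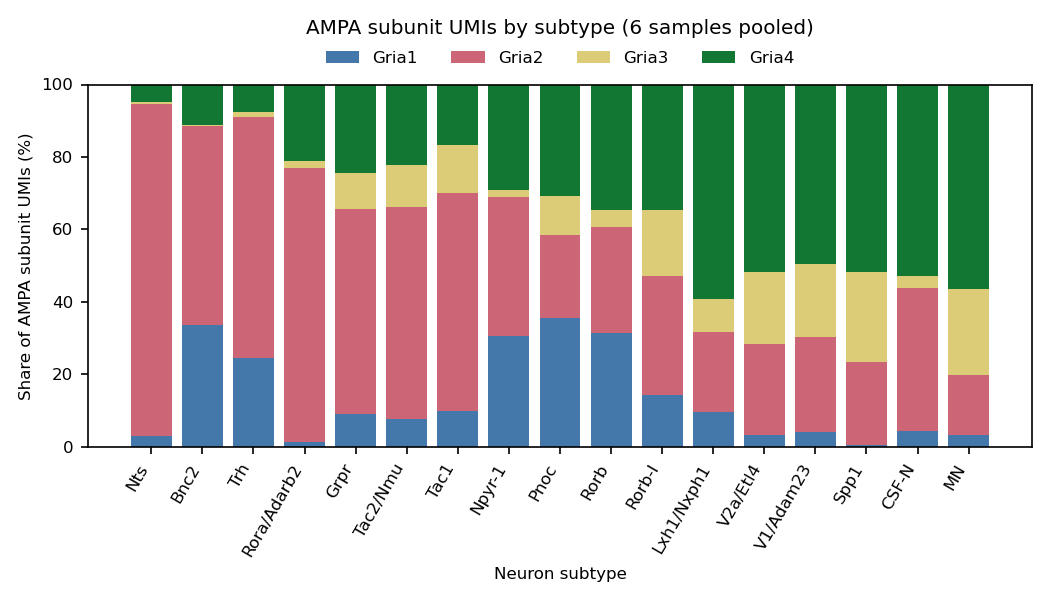
Share of AMPA subunit UMIs (vertical axis, %) that came from each of the 4 subunit genes in selected neuron subtypes, with nuclei of all 6 samples pooled. The Gria2 segment is larger in Nts (91.6%) than in motor neurons (16.4%), and the Gria4 segment is larger in motor neurons (56.4%) and Lxh1/Nxph1 (59.2%) than in Nts (4.92%).

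Among kainate receptor genes, Grik2 and Grik3 were higher in inhibitory than in excitatory neurons. Of 31 members with enough UMIs, 3 were at least 2-fold higher in inhibitory neurons in all 6 samples (1.54% of all genes) and 2 in excitatory neurons (2.64%). Grik2, which encodes the kainate subunit GluK2, ranged from 1584 to 2122 CPM in inhibitory neurons (median 1851) and from 698 to 940 CPM in excitatory neurons (median 819). Grik3 (GluK3) ranged from 88.4 to 129 CPM (median 105) against 22.2 to 40.0 CPM (median 27.3). The mean ratios were 2.26 and 3.61, and neither gene overlapped between the classes. The auxiliary subunit genes Neto1 and Neto2 were also higher in inhibitory neurons in 6 of 6 samples, by 1.61 and 1.52 times, short of 2-fold.

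Within neurons Grik3 was highest in the inhibitory subtype Npy, at 296 to 956 CPM (median 458). It did not overlap there with Pnoc, the next at 154 to 269 CPM, and 12 of 38 subtypes gave no Grik3 UMI. Grik2 and Neto1 were both highest in Lxh1/Nxph1, at 3365 to 5394 CPM (median 4170) and 468 to 932 CPM (median 573). In Nts nuclei Grik2 stood at a mean of 112 CPM and Neto1 gave 0 UMIs, which allows up to 16.6 CPM. Grik1 (GluK1) was highest in the excitatory subtype Tac1 (842 to 1089 CPM, median 943) and gave 2 UMIs in Npy. Neto2 was highest in Npy, at 137 to 706 CPM.

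Kainate receptor genes went both ways in OPC. Grik1 was lower there than in neurons in 6 of 6 samples, at 28.9 to 160 CPM (median 85.6, 40 UMIs). Grik4, which encodes the high-affinity subunit GluK4, ranged from 380 to 524 CPM in OPC (median 428) and from 130 to 241 CPM in neurons (median 197), a mean ratio of 2.27 with no overlap. Neto1 was above the same sample's neurons in 6 of 6 OPC samples, at 116 to 304 CPM (median 232) against 108 to 135 CPM (median 119). Grik3 averaged 186 CPM in OPC from 89 UMIs and 63.9 CPM in neurons, and was higher in 5 of 6 samples, all but TESS 2. In oligodendrocytes Grik2 averaged 765 CPM, 58.9% of its neuron level.

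Grid1 encodes the delta receptor GluD1, which binds presynaptic partners and is not known as a conventional glutamate-gated channel. It ranged from 678 to 816 CPM in excitatory neurons (median 785) and from 309 to 448 CPM in inhibitory neurons (median 379). Its mean ratio of 2.01 lies at the 2-fold limit, and the gene no longer met the rule without CON 2, without CON 3, or with the 2 mixed subtypes, which hold both transmitter gene sets and were left out of both classes, counted as excitatory or as inhibitory. Grid1 was highest in Tac2/Nmu (1448 to 2531 CPM, median 1581) and lowest in the inhibitory subtype Rorb, with 7 UMIs in 111 nuclei. The smaller excitatory subtype Tac2/Tacr3 (72 nuclei) held 2257 CPM of it when pooled (1996 to 2543 CPM).

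Grin1, whose GluN1 product is in every NMDA receptor, varied little between subtypes, with means from 291 CPM in Bnc2 to 712 CPM in Rorb-I. Grin2a varied more. This gene (GluN2A) averaged 1292 CPM in Trh (685 to 1814 CPM in single samples) and 26.5 CPM in Npyr-1, where 11 UMIs were counted in 318 nuclei. Grin2b (GluN2B) made up 89.8% of GluN2 UMIs in Npyr-1 (85.4% to 93.2%) and 17.5% in Rora/Parp8 (13.9% to 21.6%), where Grin2a made up 82.2%. The level of Grin2b itself varied less than that of Grin2a, with means from 325 CPM in Cdh3 to 889 CPM in Npy. In all neurons the shares were 44.2% for Grin2a and 52.2% for Grin2b.

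The GluN3 subunit genes had their own distributions. Grin3a, whose GluN3A product lowers the calcium entry of NMDA receptors, ranged from 468 to 584 CPM in excitatory neurons (median 543) and from 204 to 265 CPM in inhibitory neurons (median 220), a mean ratio of 2.36 without overlap. It was highest in Npyr-1, at 1460 to 2254 CPM (median 1730). Grin3b (GluN3B) was sparse, with no UMI in 18 of 38 subtypes. Pooled motor neurons held 176 CPM of it (129 to 235 CPM, 46 UMIs), against a mean of 27.3 CPM in V1/Adam23, the highest of the 24 subtypes. Outside neurons, Grin2c (GluN2C) ranged from 24.9 to 94.4 CPM in astrocytes (median 69.4) and from 1.87 to 4.63 CPM in neurons (median 3.53). It made up 38.2% of the 123 GluN2 UMIs of astrocytes (29.6% to 47.4%) and 0.365% of those of neurons.

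Among metabotropic receptor genes, Grm3 had its highest level outside neurons. Grm3, which encodes the group II receptor mGlu3, ranged from 591 to 1025 CPM in oligodendrocytes (median 829) and from 147 to 194 CPM in neurons (median 186). The mean was 4.56 times as high in oligodendrocytes and the values did not overlap. Grm3 also lay above neurons in 6 of 6 endothelial samples, at 218 to 381 CPM (median 267, 75 UMIs in all), by 1.60 times in the mean. The other group II gene, Grm2, gave 4 UMIs in all neurons.

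In neurons Grm3 was higher in inhibitory than in excitatory nuclei, at 211 to 301 CPM (median 270) against 96.9 to 164 CPM (median 130). The mean ratio of 2.02 lies at the limit of the rule, and the gene no longer met the rule with TMM-normalized totals, with the 2 mixed subtypes counted as inhibitory, or without CON 2, TESS 1 or TESS 3. The small inhibitory subtype Crabp1 (66 nuclei) held 1517 CPM of Grm3 when pooled (1314 to 1742 CPM). Grm5, which encodes the group I receptor mGlu5, was highest in Rorb, at 5251 to 8457 CPM (median 7375), and lowest of the 24 subtypes in Npyr-1, at 39.7 to 273 CPM. Motor neurons held 91.7 CPM of Grm5 when pooled (58.8 to 136 CPM).

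The group III genes differed among themselves. Grm7 (mGlu7) had its highest mean in Npyr-1, at 4082 to 4896 CPM (median 4372), with Rorb next at an overlapping 3089 to 5638 CPM. When pooled, Rorb stood above Npyr-1, at 4492 against 4384 CPM. Grm8 (mGlu8) gave 3 UMIs in Npyr-1. Grm8 was highest in Cdh3, at 723 to 1124 CPM (median 752), and Pdyn followed with an overlapping 434 to 1063 CPM. Grm4 (mGlu4) reached a mean of 26.7 CPM in Rorb-I at most and gave no UMI in 14 of 38 subtypes. Npyr-1 nuclei thus combined the highest Grm7 and Grin3a means with the lowest Grm3, Grm5, Grm8 and Grin2a means among the 24 subtypes.

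Scaffold genes differed in how much they varied across neuron subtypes. Shank1 had subtype means from 195 CPM in Npyr-1 to 366 CPM in Crh, and its spread over subtypes, an SD of 0.24 on the log2 scale, was the smallest of the 23 members with at least 1000 neuron UMIs. The other scaffold genes of that depth, Dlg2, Dlg1 and Shank2, had an SD of 0.42, 0.52 and 0.74. The median SD of all 23 members over the 24 subtypes was 1.05, against 0.51 for all 2332 genes of that depth, both on log2(CPM + 10). The median SD between samples of a subtype was 0.53 for the members and 0.70 for all genes of that depth. Grik1 (1.88), Gria3 (1.69) and Grm8 (1.59) had the widest spread over subtypes. Homer2, which encodes a linker of mGlu receptors and Shank, was highest in Tac2/Nmu at 67.6 to 263 CPM (median 155).

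**Figure D3:**
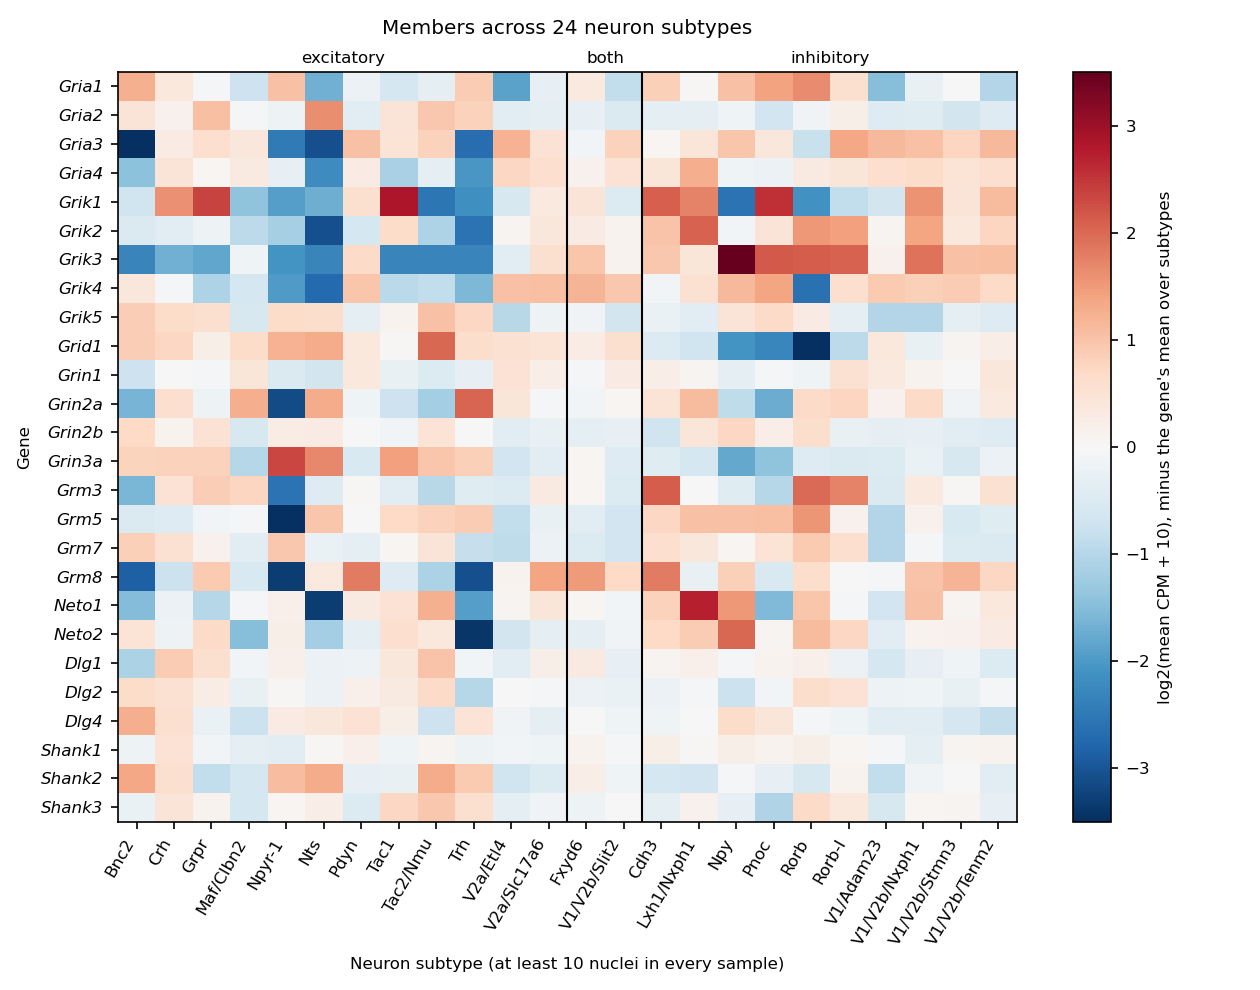
Level of members (rows) with enough UMIs in the 24 neuron subtypes (columns), as log2(mean CPM + 10) minus the gene's mean over the subtypes, with excitatory subtypes left, inhibitory right, and the 2 subtypes that hold both transmitter gene sets between them. Rows of Grik1, Gria3 and Grm8 show the strongest colours and Shank1 the weakest, and Grik3 is high mainly on the inhibitory side.

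By the 2-fold rule, 3 scaffold genes were higher in a glial class or the endothelial class than in neurons. Dlg1, which encodes SAP97, ranged from 379 to 485 CPM in oligodendrocytes (median 416) and from 159 to 190 CPM in neurons (median 174), 2.41 times in the mean and without overlap. Homer3 ranged from 27.6 to 56.3 CPM in oligodendrocytes (median 43.6), from 13.5 to 79.3 CPM in microglia (median 35.1, 24 UMIs) and from 1.87 to 9.14 CPM in neurons (median 4.24). In astrocytes Homer3 averaged 32.9 CPM and lay above neurons in 5 of 6 samples, all but TESS 1 at 0 CPM. Without TESS 1 it met the rule there too. Shank3 ranged from 58.6 to 517 CPM in the endothelial class (median 243, 64 UMIs) and from 50.3 to 69.6 CPM in neurons (median 64.2). In astrocytes Shank3 gave 0 UMIs, which allows up to 3.87 CPM. The Shank3 ranges overlapped, through TESS 3 at 58.6 CPM, and with TMM-normalized totals the gene no longer met the rule.

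Pairs of members also varied together across the 24 subtypes. The pairs named here were picked from all pairs of the 23 members with at least 1000 neuron UMIs. Gria3 and Gria4 had a Pearson correlation of 0.76 (Spearman 0.58), Gria4 and Grik2 0.75 (0.59), and Gria3 and Grin1 0.74 (0.67). Neto1 had 0.69 both with Grik2 (0.49) and with the AMPA gene Gria4 (0.37). Negative correlations were -0.82 (-0.83) for Grik5 and Grin1, -0.75 (-0.63) for Grin1 and Shank2, and -0.74 (-0.66) for Gria2 and Gria4. These describe 24 subtypes that come from the same 6 libraries, share the total each level is divided by, and differ in depth, with median UMIs per nucleus from 1030 in Npyr-1 to 3137 in V1/Adam23.

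The second question was whether these transcripts differed after TESS. Sums of UMIs per sample were compared between 3 TESS and 3 CON samples with edgeR's quasi-likelihood test over all genes of a class, and a call needed an adjusted p (Benjamini-Hochberg) under 0.05. Values by sample in the following paragraphs are CPM of the TMM-normalized totals of the genes tested. In neurons, 0 of the 31 members that passed the filter on low counts were called (1.04% of all genes tested). At an unadjusted p below 0.05 there were 2 members, Gria3 and Grin1, against 14.7% of all genes, and DESeq2 also called 0 members. The members' median log2 fold change was 0.07, with 20 above zero and 11 below, and the median of all genes was -0.01. In simulated neuron sums of this size, the test recovered 74.2% of genes with a true 2-fold rise and 28.6% of those with a 1.5-fold rise. The simulation gave every gene the same fixed dispersion and counted only genes with higher expected counts. Its rates need not hold for the members, whose own spread was not simulated.

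The 5 members with the smallest p in neurons were Gria3, Grin1, Grik3, Gria4 and Shank2. Gria3 stood at 441, 461 and 501 CPM in CON 1 to 3 and at 558, 587 and 580 CPM in TESS 1 to 3, a log2 fold change of 0.30 ± 0.11 (SE, adjusted p = 0.194 from edgeR). Grin1 stood at 486, 516 and 471 CPM in CON and at 551, 621 and 603 CPM in TESS (0.27 ± 0.11, adjusted p = 0.255). In both genes every TESS sample lay above every CON sample, and neither passed the threshold. Grik3 stood at 54.7, 58.9 and 60.1 CPM against 70.3, 74.0 and 69.1 CPM (0.30 ± 0.15, adjusted p = 0.357). Gria4 stood at 1377, 1414 and 1565 CPM against 1644, 1774 and 1630 CPM (0.21 ± 0.11, adjusted p = 0.365). These 4 were the members whose groups did not overlap, of 31, while 19.9% of all genes tested had groups that did not overlap. The groups overlapped in Shank2, which was not called and whose values by sample are not given here.

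In excitatory neurons Gria3 stood at 355, 371 and 400 CPM in CON and at 464, 532 and 524 CPM in TESS, a log2 fold change of 0.43 ± 0.13 with an adjusted p of 0.0875 from edgeR. No member passed there (0 of 29, 0.940% of all genes, 5 at an unadjusted p below 0.05 against 13.5% of all genes, DESeq2 0) or in inhibitory neurons (0 of 29, 0.320%, 0 unadjusted against 11.5%, DESeq2 0). Without CON 2, 1 member was called in excitatory neurons, Grik4. The TESS effect itself was compared between inhibitory and excitatory neurons with an interaction term in edgeR, and 0 of 29 members differed (0.0509% of all genes). At an unadjusted p below 0.05 there were 4 (5.53% of all genes). The smallest adjusted p was that of Grik2, 0.357, with an effect smaller in inhibitory neurons by a log2 difference of -0.29 ± 0.09. Across the 24 subtypes, 0 of 408 tests of a member in a subtype were called (0.0828% of all tests) and 20 had an unadjusted p below 0.05, against 7.59% of all tests.

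**Figure D4:**
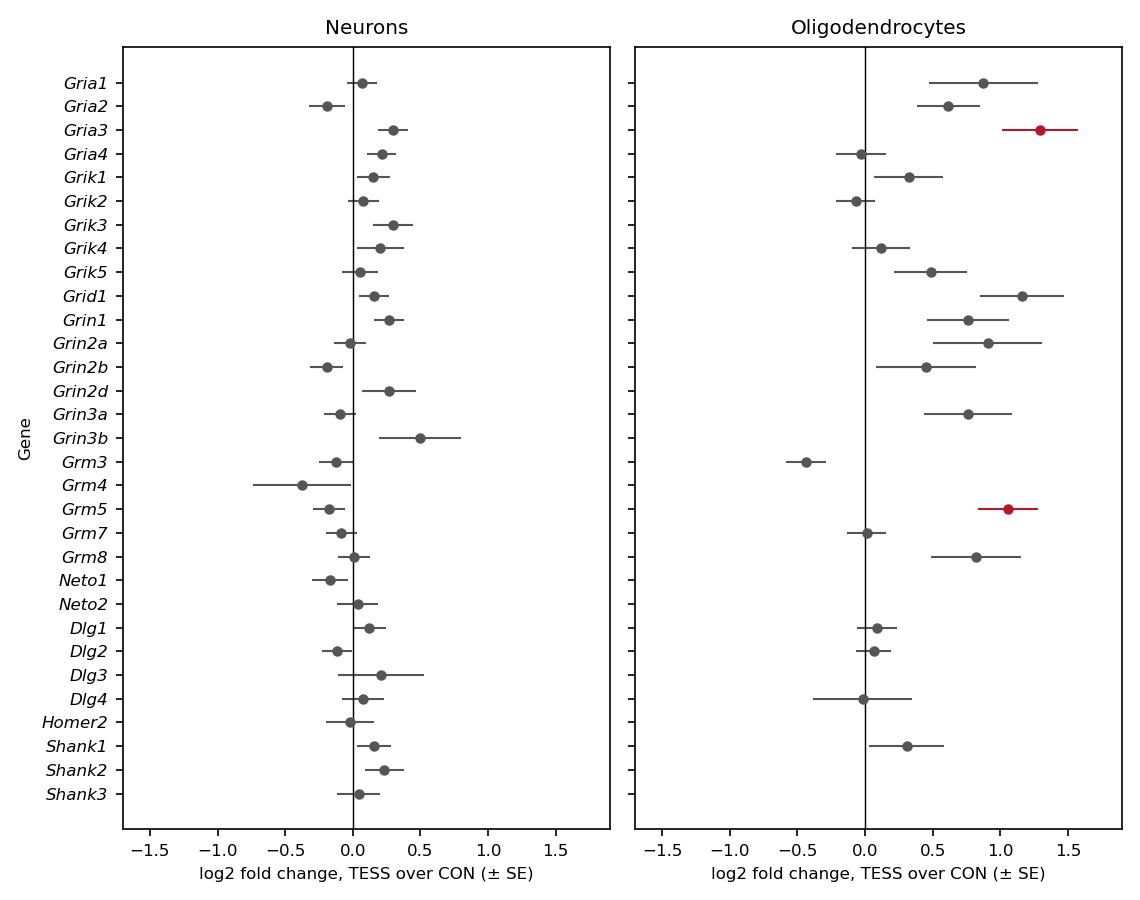
Log2 fold change of TESS over CON with its standard error for the members tested in neurons (left) and oligodendrocytes (right), from edgeR with 3 samples per group. Red marks the members with an adjusted p below 0.05, which are Gria3 and Grm5 in oligodendrocytes, and a row without a point was not tested in that class.

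In oligodendrocytes Grm5 and Gria3 rose in TESS, the only calls among the 22 members tested there (2 of 22, 1.65% of all genes). Grm5 (chromosome 7, 87584168 to 88134907, plus strand, GRCm38) stood at 77.8, 98.4 and 129 CPM in CON and at 166, 177 and 305 CPM in TESS, a log2 fold change of 1.06 ± 0.22 (2.08-fold, adjusted p = 0.0148 from edgeR). Gria3 (chromosome X, 41400854 to 41678601, plus strand, GRCm38) stood at 19.7, 31.1 and 34.7 CPM in CON and at 49.997, 68.8 and 102 CPM in TESS (1.29 ± 0.28, 2.45-fold, adjusted p = 0.0174). The groups did not overlap in either gene, and TESS 3 was the highest sample in both.

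Neither call held without each library in turn. Without TESS 3 the log2 fold change of Grm5 was 0.75 and that of Gria3 1.02, both with an adjusted p of 0.186. Without CON 1 the log2 fold changes were 0.90 and 1.09 (adjusted p = 0.0704 and 0.0747 from edgeR), and without CON 2 they were 1.05 and 1.38 (adjusted p = 0.0760 and 0.0616). Inside batch 3 (TESS 1 over the mean of CON 1 and CON 2) the log2 differences were 0.91 for Grm5 and 0.98 for Gria3. With the batch number as a term the log2 fold changes were 0.91 for Grm5 and 0.96 for Gria3. That fit rests on the same comparison of TESS 1 with CON 1 and CON 2, since each other sample is the lone one of its batch. Over all alternatives the Grm5 call was lost in 3 settings and the Gria3 call in 4. The samples left out above thus do not account for every loss of the Gria3 call.

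The level of both genes in oligodendrocytes was small beside neurons, and some neuron markers also lay higher in TESS. Over all 6 samples the oligodendrocyte level was 6.65% of the neuron level for Grm5 and 9.71% for Gria3. By sample, Grm5 in oligodendrocytes stood at 3.25%, 3.61% and 4.86% of the same sample's neurons in CON and at 7.51%, 6.94% and 15.6% in TESS. The neuron marker Syt1 stood at 45.3, 72.5 and 88.1 CPM in CON oligodendrocytes and at 98.7, 115 and 210 CPM in TESS (log2 fold change 0.99 ± 0.26, adjusted p = 0.0505). Of the 10 neuron markers 9 were tested in this class and 0 were called by edgeR, with 5 at an unadjusted p below 0.05. Their log2 fold changes ran from -0.40 (Nefl) to 0.99, with Rbfox1 at 0.80, Snap25 at -0.07 and Rbfox3 at -0.04. Their sum ranged from 1533 to 2097 CPM in CON and from 1783 to 2607 CPM in TESS, over all UMIs of the class, and no marker was at 0. Their part in the Grm5 and Gria3 results was not tested.

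More members than these lay higher in TESS oligodendrocytes without passing. Of the 22 tested, 18 had a log2 fold change above zero, with a median of 0.39 against -0.01 for all genes and 0.37 for the 9 neuron markers. Without TESS 3 the median was 0.21 for members and 0.10 for markers, and inside batch 3 it was 0.22 and 0.36. At an unadjusted p below 0.05 there were 10 members (14.4% of all genes), 9 of them higher. When single samples were left out, the number lay between 4 (without TESS 3) and 11 (without TESS 1). Grid1 stood at 23.2, 21.7 and 24.8 CPM in CON and 31.6, 57.7 and 78.2 CPM in TESS (1.16 ± 0.31, adjusted p = 0.0519 from edgeR). It was called without TESS 1 (1.53, adjusted p = 0.00780) and with no filter on low counts (1.12, adjusted p = 0.0134). The tenth was Grm3, the gene with its peak in this class, at 1038, 997 and 895 CPM in CON and 813, 606 and 744 CPM in TESS (-0.44 ± 0.15, adjusted p = 0.142). All 3 TESS values of Grm3 lay below the CON values. The groups did not overlap in 7 of the 22 members, against 19.7% of all genes tested.

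**Figure D5:**
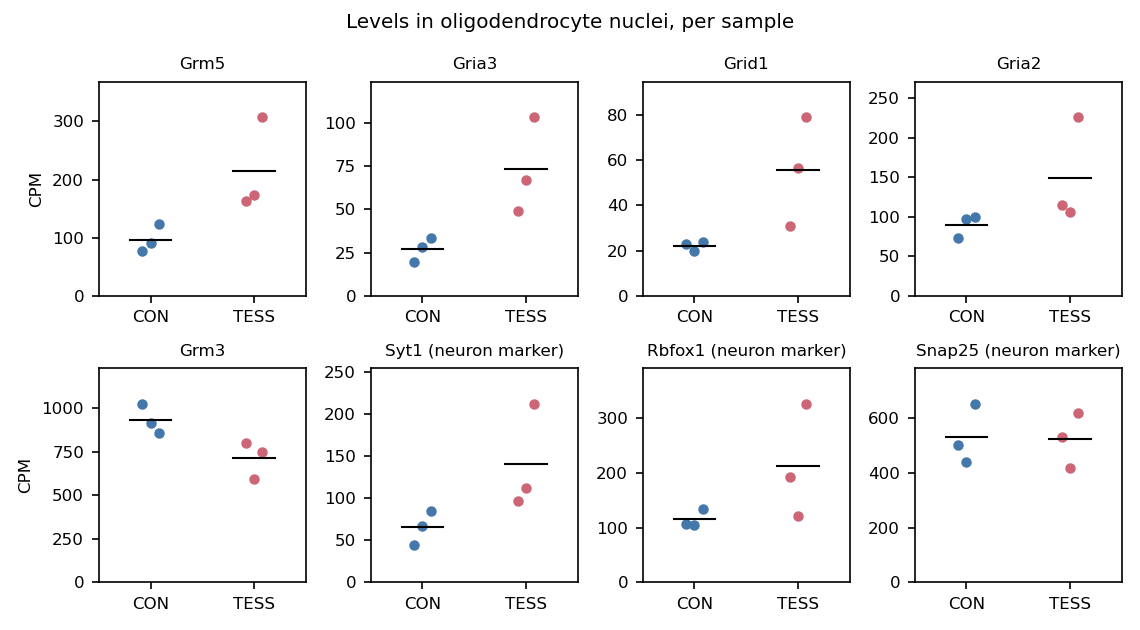
Level in oligodendrocyte nuclei (CPM of all UMIs of the class, vertical axes from 0) of 5 members and 3 neuron markers in each CON (blue) and TESS (red) sample, with the group mean as a line. Grm5, Gria3, Grid1, Gria2 and Syt1 are highest in TESS 3, Grm3 is lower in every TESS sample, and Snap25 overlaps between the groups.

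The difference between the 2 cell types was tested after these calls had been seen. The log2 fold change of Grm5 in oligodendrocytes exceeded that in neurons by 1.22 ± 0.23 (edgeR interaction term, samples as blocks, adjusted p = 0.00154, 0.727% of all genes). In neurons Grm5 itself had -0.18 ± 0.12. For Gria3 the difference was 0.97 ± 0.27 (adjusted p = 0.0678).

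No member was called in the other classes. In microglia 7 members passed the filter, 0 were called (0.600% of all genes, DESeq2 0) and 4 had an unadjusted p below 0.05 (11.9%). Gria4 stood there at 116, 128 and 110 CPM in CON and 272, 386 and 196 CPM in TESS (1.27 ± 0.35, adjusted p = 0.0905), and Grm5 at 141, 171 and 126 CPM against 282, 328 and 392 CPM (1.10 ± 0.31, adjusted p = 0.104). The groups did not overlap in either gene (3 of 7 members, 17.4% of all genes), nor in Syt1 (1.35 ± 0.43, adjusted p = 0.140), and the part of neuronal RNA was not tested. Astrocytes had 0 of 13 members called (0.976% of all genes), OPC 0 of 14 (0.155%), the endothelial class 0 of 2 (1.54%) and all nuclei together 0 of 33 (0.754%), and DESeq2 called 0 in each. At an unadjusted p below 0.05 there were 2 members in astrocytes (11.6% of all genes), 1 in OPC (8.92%), 0 in the endothelial class (15.3%) and 4 in all nuclei (14.9%).

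Partners of the receptors were counted in the same fits. Of 19 AMPA and kainate receptor partners, such as the auxiliary Cacng, Cnih and Shisa subunits and the Nptx pentraxins, 0 were called in any class. Of 27 postsynaptic density partners, such as Dlgap1, Camk2a and Camk2b, 0 were called in all nuclei, neurons, excitatory or inhibitory neurons. By edgeR, 2 and 3 partners of the respective lists had an unadjusted p below 0.05 in neurons, against 14.7% of all genes. Outside neurons Lrrtm4, which encodes a postsynaptic adhesion protein that takes part in AMPA receptor anchoring, rose in oligodendrocytes, astrocytes and microglia. The calls were 2 of 21 partners tested in oligodendrocytes (1.65% of all genes), 1 of 8 in astrocytes (0.976%) and 2 of 9 in microglia (0.600%). Lrrtm4 is among the calls in each of these classes. Because the list was chosen with earlier results of these data known, the shares are not an independent comparison. In oligodendrocytes Lrrtm4 stood at 106, 115 and 151 CPM in CON and at 230, 279 and 472 CPM in TESS (1.37 ± 0.22, adjusted p = 0.0014 from edgeR). Epb41l1, which encodes a cytoskeletal protein that binds GluA1, rose in oligodendrocytes by 0.72 ± 0.17 (adjusted p = 0.0278), and Lrrc7, which encodes densin-180, rose in microglia by 2.37 ± 0.53 (adjusted p = 0.0274, 46 UMIs). The Lrrtm4 call in oligodendrocytes held without each sample in turn (log2 fold change 1.03 without TESS 3, adjusted p = 0.0238 from edgeR). With the batch number as a term, which rests on TESS 1 against CON 1 and CON 2, its log2 fold change was 1.06. Each of the other calls was lost without CON 1 and without TESS 3. Lrrtm4 was further lost without CON 3 in astrocytes and without CON 2 in microglia, Epb41l1 without CON 2, CON 3 or TESS 2, and Lrrc7 without CON 2 or TESS 2. In astrocytes DESeq2 did not call Lrrtm4 (adjusted p = 0.394), and without TESS 3 its log2 fold change was 0.78 (1.24 with all samples). Over all alternatives the Lrrtm4 call was lost in 6 settings in astrocytes and in 4 in microglia. The Epb41l1 call was lost in 6 settings and the Lrrc7 call in 5. The losses listed above are therefore not complete. The neuron markers Syt1 and Rbfox1 lay higher in TESS by 0.99 and 0.80 in oligodendrocytes and by 1.35 and 0.60 in microglia without being called, and their part in these results was not tested.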

How the data were processed

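The authors deposited whole-number UMI counts per gene and nucleus, with metadata giving library, batch number, major cell type, neuron subtype and a mitochondrial fraction, which the deposited values put at 4.92% at most. Per the submitters' processing notes the tools were Cell Ranger 2.2.0 and Seurat 3, and the builds mm10 and GRCm38. The sources used here do not state nucleus filters, doublet removal, intron counting, use of strand or the meaning of the batch number. No doublet caller was run.

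Counts were summed per sample and class. The 38 subtypes were taken as excitatory (20), inhibitory (15), cholinergic (1) or, with at least 0.4 UMIs per nucleus of both transmitter gene sets, as mixed (2, left out of both classes), a limit chosen after seeing the data. edgeR 4.0.16 in R 4.3.3 (TMM, filterByExpr with a minimum count of 10, no batch term) compared TESS with CON, with p adjusted over all genes of a class or subtype and none across classes. DESeq2 1.42.0, other normalization, no filter, a batch term, a replicate block and leaving out each sample were alternatives. The test was checked on simulated counts. Members and partner lists were chosen with earlier results of these data known. All members may be named. Values by sample were due for members called in a class, the 5 with the smallest p in neurons and those that met a level rule, and partners were named where called. Of the postsynaptic density partners, 1 gene is not reported here and is left out of the counts.

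All 34 members matched 1 gene of GENCODE vM21. As the strand of counting is unknown, reads of 8 members that overlap another gene of the table (Grin1, Grin2b, Grin2d, Grin3b, Grm7, Homer3, Shank1 and Shank2) cannot be told apart from those of the neighbour.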

Additional observations from a re-analysis of the deposited data

Results flagged for a closer look

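The TESS effect on Grm5, the gene of the metabotropic receptor mGlu5, differed between cell types. Its log2 fold change was larger in oligodendrocytes than in neurons by 1.22 (interaction test in edgeR over all genes, SE 0.23, adjusted p = 0.00154), a test added after the calls in oligodendrocytes had been seen. In oligodendrocytes each of the 3 TESS samples lay above each CON sample, and in neurons the fold change was -0.18 ± 0.12. The oligodendrocyte values are those that led to the test. The call there was lost without CON 1, CON 2 or TESS 3, and the level was 6.65% of that in neurons. The neuron marker Syt1 had 0.99 in oligodendrocytes and -0.02 in neurons, and Snap25 had -0.07 and 0.24. The part of neuronal RNA was not tested.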

How the results depend on the processing

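No alternative turned the direction of Grm5 and Gria3 in oligodendrocytes or of the called partners Lrrtm4, Epb41l1 and Lrrc7. The alternatives for these partners were added after the calls had been seen. Leaving out a sample or adding the batch term could not have turned it. For each of these genes the lowest TESS value exceeded the highest CON value, so those settings do not test the direction. With a replicate block Grid1 was also called in oligodendrocytes (adjusted p = 0.0170 from edgeR). The number of members called in oligodendrocytes, 2, was between 0 and 3 when single samples were left out, with 0 without CON 1, CON 2 or TESS 3. In microglia it was 0, between 0 and 1 when single samples were left out (Dlg2 without CON 3 or TESS 1) and 4 with a replicate block (Dlg2, Gria4, Grm5 and Grm7). In excitatory neurons it was 0, and between 0 and 1 without single samples. The samples were not treated as paired in the main test. Same-numbered CON and TESS samples had correlations of -0.05, -0.00 and -0.02 in their deviations in neurons. Such values from neurons alone do not show whether the numbers pair the samples. The block changed the count of members called by over 1.5 times in no class but microglia. The median log2 fold change of members in neurons, 0.07, was 0.14 with equal nuclei per subtype and between 0.027 (without CON 1) and 0.10 without single samples. Members whose TESS effect differed between oligodendrocytes and neurons numbered 1, and between 1 and 4 without single samples, the highest being 4 without TESS 1 and 2 without TESS 2. Members at least 2-fold apart between inhibitory and excitatory neurons numbered 5. They were 10 at a 1.5-fold limit, 3 with the mixed subtypes counted as inhibitory, and between 3 and 5 without single samples. Grin2c in astrocytes and Homer3 in microglia rest on 47 and 24 UMIs, and Grin2c fell under the 60-UMI minimum without CON 1, Homer3 without CON 1 or CON 2. The cause of these shifts was not tested. Depth limits what can be said of Grm2, Grm4, Grin2c, Grin3b, Dlg3 and Homer3, which few UMIs represent, and of subtypes with few nuclei.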
